A study of Mus musculus with 6 samples.

Results

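The genes described here encode the proteins of synaptic vesicles and of the machinery that releases them. They were chosen by name, from the known function of their products. The rule did not use their values, but earlier results of these data were known when it was made. The list holds 45 genes in 6 roles, namely vesicle proteins, SNAREs and tomosyn, calcium sensors and complexins, active zone proteins, transmitter transporters, and endocytosis proteins. A row of the deposited table was found for 43 of them, and *Vamp1* and *Syt11* were not analysed here. *Rims1* has 2 rows that overlap in the genome, so the 43 genes gave 44 features of the 59484 in the table, and all 44 passed the filter of a mean of at least 10 normalized counts that left 18970 features for testing.

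Cortex was taken at embryonic day 18.5 from 3 wild-type C57BL/6 embryos and from 3 C57BL/6 embryos of the genotype Sam68:Slm2 ko (dKO), which lack the paralog RNA binding proteins Sam68 (gene *Khdrbs1*) and SLM2 (gene *Khdrbs3*) in every cell from conception. The whole cortex was lysed, so neurons were measured together with progenitors, glia and vessel cells. PolyA+ RNA was sequenced in a 150 bp paired-end format, and the value of a feature is its number of reads over the size factor of that library (normalized count). The study bred dKO mice by mating Sam68+/-:Slm2-/- animals, a cross that gives no wild-type embryo, so litter and genotype cannot be told apart. Nothing in the sources says whether the 3 embryos of a genotype came from separate litters, and the *P*-values measure the spread between these samples.

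A synaptic vesicle is filled with transmitter by a transporter in its membrane, docks at the active zone and is primed there by the assembly of SNARE proteins of the vesicle and of the plasma membrane into a tight bundle. Calcium that enters through channels at the active zone binds synaptotagmins, which trigger fusion together with complexins, and the membrane is then recovered by endocytosis. In the cortex just before birth most neurons are young, and the first synapses are forming while the genes of the release machinery are already transcribed.

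The libraries held between 31837922 and 40896541 reads on the listed features. *Khdrbs1* fell to 1.86% of its wild-type level in dKO cortex (log2 fold change -5.78; limma, adjusted p = 1.08e-07) and *Khdrbs3* to 48.1% (log2 fold change -1.05; limma, adjusted p = 0.000855). Transcripts of the Y-linked genes *Uty*, *Ddx3y* and *Kdm5d* were at 0 in wild-type replicate 2 and dKO replicate 3 alone, so that each genotype held 1 library without them. In 2 libraries, wild-type replicate 1 and dKO replicate 1, features with long transcripts stood higher than in the others (Spearman correlation across features of the deviation from the feature mean with transcript length, 0.29 and 0.34, against -0.24 to -0.14 in the other 4). Defining neuronal markers were present in every library. The summed level of 10 pan-neuronal genes was between 277536 and 304552 normalized counts in wild-type and between 306771 and 317096 in dKO libraries. These sums are weighted to the most abundant gene, with a wild-type mean of 143317. Over the 10 genes the median log2 fold change was 0.02 and 5 were below 0.

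The vesicle and release genes were abundant in the E18.5 cortex. Levels between genes were compared per kb of the longest annotated transcript, as the wild-type mean of normalized counts, so they depend on which transcript is annotated. The highest was *Rab3a* (10729 normalized counts per kb), the small GTPase that carries vesicles to the active zone, followed by *Vamp2* (9018), the SNARE of the vesicle membrane, *Snap47* (6059.5), a relative of SNAP25, and *Cplx1* (3888), the complexin that clamps and promotes fusion. Among the synaptotagmins *Syt5* (3588 per kb) and *Syt4* (2831 per kb) stood above *Syt1* (802 per kb), the fast calcium sensor of mature forebrain synapses, and *Syt7* (330.05 per kb), a sensor of slow release. Within families the paralogs were unequal: *Syn1* had 871, *Syn2* 253 and *Syn3* 163 normalized counts per kb, *Sv2a* 1169.9, *Sv2b* 225 and *Sv2c* 5.83, and *Unc13b* and *Unc13a*, which encode the priming factors Munc13-2 and Munc13-1, 88.6 and 74.9. *Sv2c* was the lowest of all, with at least 29 reads in each library. The level of wild-type libraries ran from 53.1 normalized counts for *Sv2c* to 19885 for *Vamp2*, with a median of 3049 over the 44 features.

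**Figure D1:**
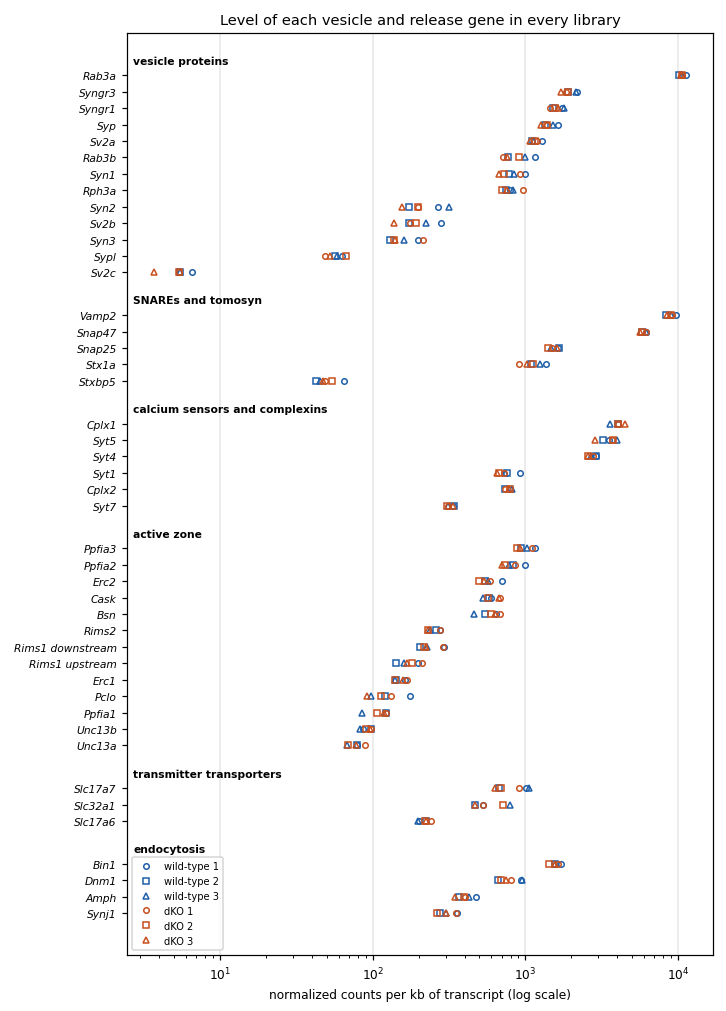
Level of each of the 44 features in normalized counts per kb of transcript (x axis, log scale), grouped by role on the y axis, with 1 symbol per library (blue wild-type, orange dKO). *Rab3a* and *Vamp2* lie highest, *Sv2c* lowest at 5.83 in the wild-type mean, and in almost every row the symbols of the 6 libraries lie close together compared with the distance between genes.

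The comparison of dKO with wild-type cortex asked whether the joint loss of Sam68 and SLM2 changed how much RNA of the release machinery was present. No member passed an adjusted *P*-value of 0.05 in limma, where 19 of the 18970 features, or 0.1%, did. The smallest adjusted *P*-value of a member was 0.393, for *Stx1a*. With an unadjusted *P*-value under 0.05, *Stx1a*, *Syt1*, *Syngr3* and *Sv2b* made up 4 members, all lower in dKO cortex, which is 9.09% of the members beside 11.5% of all features (6.58% lower and 4.92% higher). edgeR and DESeq2 on the recovered reads gave 5 and 6 members at this level (11.9% and 11.6% of all features), and 0 members at an adjusted *P*-value under 0.05 (0.0843% and 1.09% of all features). The genotypes did not overlap in 3 members, *Syt1*, *Syngr3* and *Sv2c*, each lower in dKO cortex, or 6.82% of the members beside 16.4% of all features (8.48% lower and 7.89% higher).

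The differences were small. The log2 fold changes ran from -0.43 (*Syn2*) to 0.23 (*Bsn*), so that all 44 lay within 1.5-fold, as did all but 10.9% of the features tested. The standard error had a median of 0.11 over the members. For 38 of the 44 the whole 95% interval of the difference lay within 1.5-fold in either direction, beside 54.6% of all features. The other 6 were *Syn2*, *Sv2b*, *Sv2c*, *Rab3b*, *Pclo* and *Slc17a7*. Of the 8558 features with a wild-type mean of at least 500 normalized counts, 7876 had the whole interval within 1.5-fold and 8479 the estimate. By this measure the members were not steadier than other abundant features. The log2 fold change was below 0 in 33 of the 44 members (75.0%), with a median of -0.06. Over all features tested 49.4% were below 0, with a median of 0.00, and over the 8558 features with a wild-type mean of at least 500 normalized counts 35.9% were below 0, with a median of 0.05. In bulk cortex, fewer cells that express a gene and less RNA of it per cell cannot be told apart.

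**Figure D2:**
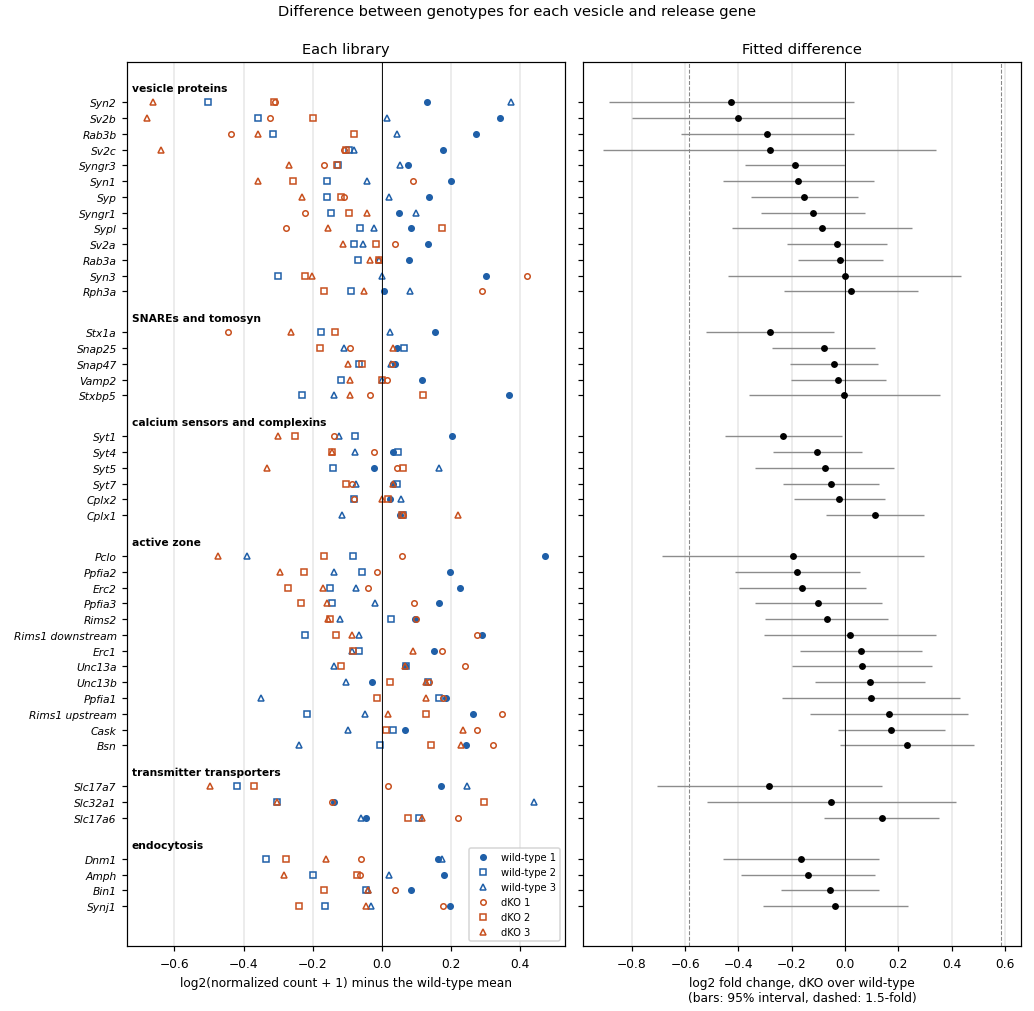
Left, log2(normalized count + 1) of each member in each library minus the mean of the 3 wild-type libraries. Right, the fitted log2 fold change of dKO over wild-type with its 95% interval, with dashed lines at 1.5-fold. All 44 estimates lie between the dashed lines, 33 lie to the left of 0, and the filled blue points of wild-type replicate 1 form the right edge of many rows.

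Of the vesicle proteins 12 of 13 were below 0 (median log2 fold change -0.15), and 2 had an unadjusted *P*-value under 0.05. Their median was -0.08 without wild-type replicate 1 and -0.23 without wild-type replicate 2. *Syn2* (chr6:115134902-115282626) encodes a synapsin, a protein that tethers vesicles in the reserve pool. It had 1035, 667 and 1226 normalized counts in the wild-type libraries and 763, 762 and 597 in the dKO libraries. Wild-type replicate 2 lay below 2 of the dKO libraries, and the genotypes overlapped (log2 fold change -0.43, standard error 0.20, 95% interval -0.89 to 0.03, unadjusted p = 0.065 and adjusted p = 0.465 from limma). *Sv2b* (chr7:75114894-75309262), a vesicle glycoprotein related to transporters, had 1547, 952 and 1234 normalized counts in wild-type and 975, 1064 and 762 in dKO cortex. Here too wild-type replicate 2 lay among the dKO libraries (log2 fold change -0.40, standard error 0.18, unadjusted p = 0.0496 and adjusted p = 0.434 from limma).

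*Syngr3* (chr17:24685092-24689950), a synaptogyrin of the vesicle membrane, had 4287, 3727 and 4220.4 normalized counts in wild-type and 3626, 3721 and 3376 in dKO cortex. All dKO libraries lay below all wild-type ones, by a margin of 3721 against 3727 (log2 fold change -0.19, standard error 0.08, unadjusted p = 0.0483 and adjusted p = 0.43 from limma; exact two-sided permutation p = 0.1, the smallest that 3 against 3 allow). *Sv2c* (chr13:95959443-96132577), best known from the basal ganglia, had 59.9, 49.4 and 49.97 normalized counts in wild-type and 49.0, 49.1 and 33.6 in dKO cortex. The genotypes did not overlap, but the gap was less than 1 read wide and the difference lay within its error (log2 fold change -0.28, standard error 0.28, adjusted p = 0.713 from limma).

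The other vesicle proteins lay between -0.29 and 0.02. *Rab3b* was at -0.29 (unadjusted p = 0.0734 from limma), *Syn1* at -0.17, *Syp*, which encodes synaptophysin, at -0.15 and *Syngr1* at -0.12, while *Sypl* was at -0.09, *Sv2a* at -0.03, *Rab3a* at -0.02, *Syn3* at 0.00 and *Rph3a*, which encodes the Rab3 effector rabphilin, at 0.02. *Rab3a*, the most abundant per kb, had the smallest standard error of the members, 0.07, and a 95% interval of -0.18 to 0.14.

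Promoters of 35 members were found in the RefSeq table (build GRCm38.p6, from 250 bases before to 50 after the start). They were searched for the cAMP response element TGACGTCA, bound by the activity-dependent factor CREB, whose letters read the same on both strands. It was in 1 of the 35 (2.86%), beside 2.03% of all 27025 promoters. The match is in the promoter of *Syn1* (chrX:20921058-20921089, minus strand), shown with the element in capitals:
*Syn1* promoter window: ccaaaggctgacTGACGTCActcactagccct
A match describes the letters in this window only.

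The SNAREs and tomosyn stayed near 0, apart from *Stx1a*. All 5 were below 0, with a median log2 fold change of -0.04. *Stx1a* (chr5:135023482-135051100) encodes syntaxin 1A, a SNARE of the plasma membrane. It had 2959, 2357 and 2703 normalized counts in wild-type and 1953, 2422 and 2220.0 in dKO cortex. Only wild-type replicate 2 lay below a dKO library, and *Stx1a* had the smallest *P*-value of the members (mean 2673 ± 302 and 2198 ± 235, SD over 3 embryos each; log2 fold change -0.28, standard error 0.11, unadjusted p = 0.026 and adjusted p = 0.393 from limma). *Snap25*, the other plasma membrane SNARE, was at -0.08, *Snap47* at -0.04, *Vamp2* at -0.03 and *Stxbp5*, which encodes tomosyn, an inhibitor of SNARE assembly, at 0.00.

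Of the calcium sensors and complexins 5 of 6 were below 0, with a median of -0.06. *Syt1* (chr10:108497651-109010975) had 4423, 3644 and 3525 normalized counts in wild-type and 3489, 3227 and 3122 in dKO cortex. All dKO libraries lay below all wild-type ones, and wild-type replicate 1 stood well above the rest (mean 3864 ± 487 and 3279.6 ± 189, SD, n = 3 each; log2 fold change -0.23, standard error 0.10, unadjusted p = 0.0403 and adjusted p = 0.412 from limma). *Syt1* was also the member that kept an unadjusted *P*-value under 0.05 most often, in 14 of 18 alternatives, with log2 fold changes from -0.29 to -0.13, and without wild-type replicate 1 its unadjusted p was 0.183 from limma. *Syt4* was at -0.10, *Syt5* at -0.08, *Syt7* at -0.05 and *Cplx2* at -0.02. *Cplx1* was at 0.11 (95% interval -0.07 to 0.30).

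The active zone proteins, which organise the release site, were the 1 role with a median above 0. Only 5 of their 13 features were below 0 and the median was 0.06, but the median was -0.03 without dKO replicate 1 and -0.01 without wild-type replicate 3, and 0.02 after a correction for transcript length. None had an unadjusted *P*-value under 0.05. *Bsn* (chr9:108096023-108190383) encodes bassoon, one of the very large scaffolds of the active zone. It had 10227, 8612 and 7314 normalized counts in wild-type and 10803, 9535 and 10124 in dKO cortex. Wild-type replicate 1 lay among the dKO libraries (mean 8718 ± 1459 and 10154 ± 635, SD, n = 3 each; log2 fold change 0.23, standard error 0.11, unadjusted p = 0.068 and adjusted p = 0.468 from limma). The unadjusted *P*-value was 0.0054 without wild-type replicate 1, 0.317 without wild-type replicate 3 and 0.013 after the length correction.

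*Pclo*, which encodes the second giant scaffold piccolo, had a log2 fold change of -0.19 (95% interval -0.69 to 0.30), which turned to 0.04 without wild-type replicate 1. The ratio of *Bsn* to *Pclo* was 2.88, 3.56 and 3.74 in wild-type and 4.05, 4.18 and 5.49 in dKO libraries. The ratio did not overlap between the genotypes (exact two-sided permutation p = 0.1, the smallest that the design allows, adjusted p = 0.3 over 6 ratios). Among the 6, the genotypes overlapped in *Sv2b* to *Sv2a*, *Syn2* to *Syn1* and *Slc32a1* to *Slc17a6* plus *Slc17a7* (exact two-sided permutation p = 0.2, 0.5 and 0.6). They also overlapped in *Slc17a7* to *Slc17a6*, given below.

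*Cask* (chrX:13517084-13846557) encodes a scaffold of the membrane-associated guanylate kinase family that binds neurexins. It had 4968, 4844 and 4426 normalized counts in wild-type and 5732, 4777 and 5584 in dKO cortex. dKO replicate 2 lay among the wild-type libraries, and the other 2 dKO libraries lay above all of them (log2 fold change 0.17, standard error 0.09, unadjusted p = 0.0838 and adjusted p = 0.489 from limma; unadjusted p = 0.0187 without dKO replicate 2). *Cask*, *Rims1*, *Ppfia1* and *Ppfia2* are the 4 members that the study lists as regulated in splicing, a list drawn from these same embryos. Their 5 features had log2 fold changes between -0.18 and 0.17, with a median of 0.10, and 1 of the 5 was below 0. A normalized count of a whole gene does not separate its splice forms. The case of *Cask* is shown by the oligos that the study designed for its splicing assay, which flank a pair of alternative coding exons on the minus strand (build mm10):
*Cask* forward oligo: ccttcaagattgtgccaagc
*Cask* reverse oligo: tgccaaaccaagtacagctg
*Cask* alternative exon at chrX:13552373-13552441: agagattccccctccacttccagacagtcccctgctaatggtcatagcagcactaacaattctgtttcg
*Cask* alternative exon at chrX:13550947-13550982: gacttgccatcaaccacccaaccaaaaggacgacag
On the transcripts of GENCODE release M21 the oligos span 417 bases with both exons (Cask-204), 381 with the 69-base exon alone (Cask-201), 348 with the 36-base exon alone (Cask-203 and Cask-212) and 312 with neither (Cask-209). These forms count alike in the deposited values, so the values above are silent on the choice between them.

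*Rims1*, which encodes a scaffold that links vesicles to calcium channels, has an upstream feature at chr1:22346284-22805994 and a downstream feature at chr1:22286251-22479568, between which reads may be split. The upstream feature was at 0.16 and the downstream one at 0.02. The ratio of upstream to downstream normalized counts was 0.680, 0.695 and 0.699 in wild-type and 0.726, 0.828 and 0.744 in dKO libraries. All dKO libraries lay above all wild-type ones (exact two-sided permutation p = 0.1, the smallest possible, adjusted p = 0.3 over 6 ratios). The other active zone genes lay between -0.18 and 0.10. The priming factors *Unc13a* and *Unc13b* were at 0.06 and 0.10, the liprins *Ppfia1*, *Ppfia2* and *Ppfia3* at 0.10, -0.18 and -0.10, the scaffolds *Erc1* and *Erc2* at 0.06 and -0.16, and *Rims2* at -0.07.

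The transmitter transporters mark the kind of neuron as well as its vesicles. *Slc17a7* (chr7:45163921-45176138) encodes VGLUT1, the glutamate transporter of mature cortical projection neurons. It had 2946, 1957 and 3099 normalized counts in wild-type and 2649, 2021 and 1851 in dKO cortex. Wild-type replicate 2 lay among the dKO libraries (log2 fold change -0.28, standard error 0.19, 95% interval -0.71 to 0.14, adjusted p = 0.579 from limma). *Slc17a6* (chr7:51621830-51671126) encodes VGLUT2, which many cortical neurons use before birth and thalamic neurons keep. It had 832, 925 and 823 normalized counts in wild-type and 1001, 905 and 931 in dKO cortex, where 2 of the dKO libraries lay above all wild-type ones (log2 fold change 0.14, standard error 0.10, adjusted p = 0.598 from limma). The ratio of *Slc17a7* to *Slc17a6* was 3.54, 2.12 and 3.76 in wild-type and 2.65, 2.23 and 1.99 in dKO libraries, which overlap (exact two-sided permutation p = 0.3, adjusted p = 0.45 over 6 ratios).

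*Slc32a1* (chr2:158610758-158615764) encodes VGAT, the vesicular transporter of GABA and glycine. It had 1474, 1316 and 2203 normalized counts in wild-type and 1467, 1992 and 1315 in dKO cortex. It was high in 1 library of each genotype, wild-type replicate 3 and dKO replicate 2, and the genotypes overlapped (log2 fold change -0.05, standard error 0.21, adjusted p = 0.942 from limma). The same 2 libraries were the highest for the summed level of 10 markers of GABAergic interneurons and the ganglionic eminence, at 19368 and 16181 normalized counts against 13189.7 to 13948 in the other 4. They were also the highest for 10 striatal markers, at 5715 and 6110.2 against 3900.5 to 4972. Of these markers 5 of 10 and 5 of 10 were below 0, none had an unadjusted *P*-value under 0.05, and none was at 0 in the mean of a genotype. The part of cell composition in the level of *Slc32a1* was not tested.

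**Figure D3:**
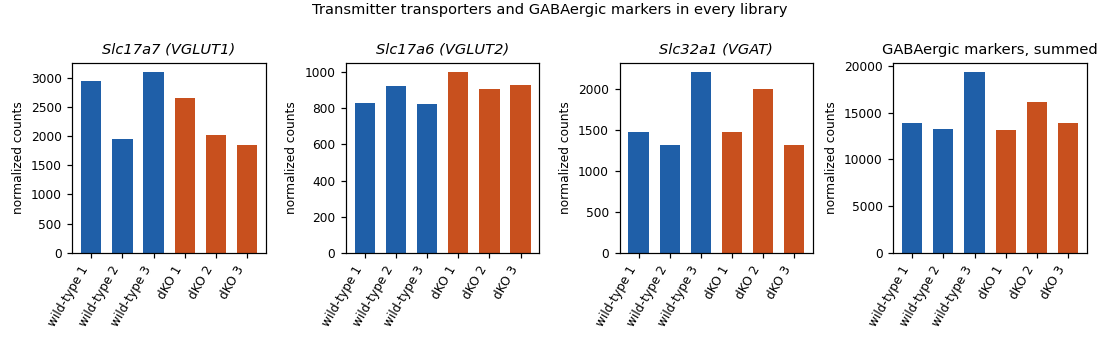
Normalized counts of *Slc17a7*, *Slc17a6* and *Slc32a1* and the summed normalized counts of 10 GABAergic markers in each of the 6 libraries (1 bar per library, blue wild-type, orange dKO, axes from 0). The bars of *Slc32a1* and of the GABAergic markers are tallest in wild-type replicate 3, at 2203 and 19368, and next in dKO replicate 2, at 1992 and 16181.

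The endocytosis genes were all below 0, with a median of -0.10 over 4. *Dnm1* (chr2:32308473-32353329) encodes dynamin 1, the GTPase that pinches off vesicles from the membrane. It had 4324, 3064 and 4362 normalized counts in wild-type and 3708, 3189 and 3459.8 in dKO cortex. Wild-type replicate 2 was the lowest of the 6 and the other wild-type libraries were the highest (log2 fold change -0.17, standard error 0.13, adjusted p = 0.641 from limma). *Amph* and *Bin1*, which encode amphiphysins that bend membrane, were at -0.14 and -0.06, and *Synj1*, which encodes the lipid phosphatase that helps shed the clathrin coat, at -0.04.

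The 3 libraries of a genotype were not alike in these genes. In wild-type replicate 1, 22 of the 44 features had their highest value, as did 3163 of the 18970 features tested. In dKO replicate 3, 16 of the 44 had their lowest, as did 3666 of all features tested. The median deviation of a member from its mean over the 6 libraries was 0.14 in wild-type replicate 1 and -0.07 and 0.00 in the other wild-type libraries, and 0.05, -0.05 and -0.09 in the dKO libraries on the log2 scale. Without wild-type replicate 1 the median log2 fold change of the members was -0.02 and 2 members had an unadjusted *P*-value under 0.05, *Bsn* and the upstream feature of *Rims1*, both higher in dKO cortex, beside 8.06% of all features. Without dKO replicate 3 no member did, beside 6.47% of all features, and without wild-type replicate 2 there were 9, beside 14.3%. Without dKO replicate 2 there were 4, *Cask*, *Rab3b*, *Stx1a* and *Sv2b*, beside 12.2%. Of the 44 members 26 were below 0 without wild-type replicate 1 and 27 without dKO replicate 3, while the correction for transcript length left the count at 33.

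**Figure D4:**
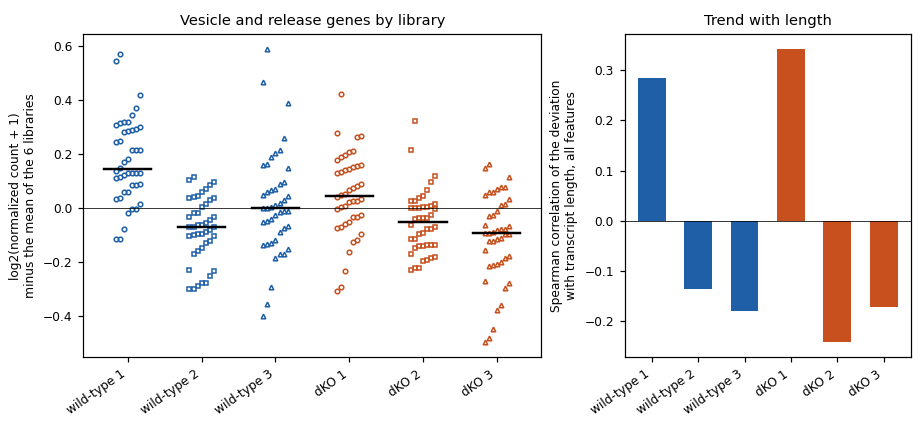
Left, deviation of each of the 44 features from its mean over the 6 libraries on the log2 scale, 1 symbol per feature, with the median as a black bar. Right, Spearman correlation across 14280 features of this deviation with transcript length in each library. The median is highest in wild-type replicate 1 at 0.14 and lowest in dKO replicate 3 at -0.09, and the correlation is positive in wild-type replicate 1 and dKO replicate 1 alone.

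A further 76 genes of the release machinery outside the list were read from the same fit. A row was found for 74, and 71 passed the filter. None passed an adjusted *P*-value of 0.05 in limma. An unadjusted *P*-value under 0.05 was found in 10 of 71, 9 lower and 1 higher in dKO cortex, and the genotypes did not overlap in 17, of which 15 were lower and 2 higher. The shares were 14.1% and 23.9%, beside 11.5% and 16.4% of all features. Their median log2 fold change was -0.10. *Rab27b* encodes a small GTPase of vesicles and secretory granules. It had 312, 269 and 292 normalized counts in wild-type and 125, 205 and 144 in dKO cortex. The genotypes were well apart (log2 fold change -0.90, standard error 0.19, unadjusted p = 0.000775 and adjusted p = 0.187 from limma).

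*Rims3*, which encodes a short RIM protein of the active zone, had 938, 756 and 824 normalized counts in wild-type and 608, 647 and 560.2 in dKO cortex (log2 fold change -0.47, standard error 0.11, adjusted p = 0.252 from limma). For these genes, DESeq2 on the recovered reads gave an adjusted *P*-value under 0.05, and it was the tool that called most features, 207 or 1.09% of all tested. The other lower genes were *Ppfibp1* (-0.58), which encodes a liprin, *Synj2* (-0.80), the second synaptojanin, the synaptotagmins *Syt13* (-0.78) and *Syt10* (-0.93), *Lin7b* (-0.78), a partner of CASK, *Doc2a* (-0.40), a calcium sensor of spontaneous release, and *Synpr* (-1.05), which encodes synaptoporin. *Dnm2*, the dynamin of all cell types, was the only higher one (0.21). Several of these genes had low levels: *Lin7b* had between 57.2 and 145 normalized counts and *Syt10* between 22.7 and 94.2.

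**Figure D5:**
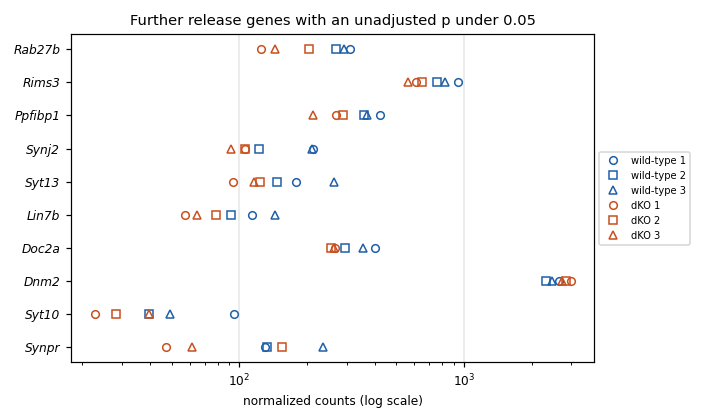
Normalized counts (x axis, log scale) of the 10 further release genes with an unadjusted *P*-value under 0.05 in each library, ordered by *P*-value from the top. For *Rab27b* the dKO libraries lie between 125 and 205 and the wild-type libraries between 269 and 312, and *Dnm2* is the only row in which the dKO libraries lie to the right.

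No marker of any cell type passed an adjusted *P*-value of 0.05 in limma, and the smallest, among the intermediate progenitor markers, was 0.229. The differences below are by sign and unadjusted *P*-value. All 7 markers of the oligodendrocyte lineage were lower in dKO cortex by sign, and 3 of the 7 had an unadjusted *P*-value under 0.05. Their summed level was 7524 to 12650.4 normalized counts in wild-type and 4388 to 7101 in dKO libraries. Of the 7, 6 were highest in wild-type replicate 1 and 6 were lowest in dKO replicate 3. The sums of wild-type replicate 2 (7524) and dKO replicate 2 (7101) lay close together. All 6 endothelial markers were below 0 as well, 2 of them with an unadjusted *P*-value under 0.05, with summed levels that overlapped (4812 to 6189.5 and 4542 to 5216). All 8 proliferation markers were above 0, 4 of them with an unadjusted *P*-value under 0.05, with 9255 to 10533 in wild-type and 11665 to 12497 in dKO libraries, and so were all 5 of the 6 listed markers of intermediate progenitors that have a row, the cells that give rise to projection neurons, with 4227 to 5280.3 against 5610.4 to 7034 and 3 of the 5 with an unadjusted *P*-value under 0.05. Of 10 markers of projection neurons 9 were above 0, 5 with an unadjusted *P*-value under 0.05, and of 10 pan-neuronal markers 5 were above 0, 3 with an unadjusted *P*-value under 0.05. None of these markers was at 0 in either genotype. Over all features tested, 11.5% had an unadjusted *P*-value under 0.05. In the other lists 2 of 8 radial glia markers, 1 of 7 thalamic, 1 of 4 choroid plexus and 2 of 7 immediate early genes tested did. Of 4 erythroid and 7 microglial markers 0 did. By sign, 4 of the radial glia, 5 of the thalamic, 3 of the choroid plexus, 3 of the immediate early, 0 of the erythroid and 4 of the microglial genes were below 0. The part of cell composition in the values of the vesicle and release genes was not tested.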

How the data were processed

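PolyA+ RNA of E18.5 cortex was measured in 6 libraries, whose labels give the genotype. The authors had reads assigned to genes of the FAST database and deposited 1 signal value per gene and library, in which the count is scaled by a DESeq2 size factor according to the table's title. The submitters' processing notes name STAR 2.7.5a and the build mm10. The counting program and strand setting are not given in the sources used here, so reads of overlapping or antisense genes cannot be told apart. Every positive value (100% in each library) was a whole number of times the smallest one (tolerance 0.01), which was taken as 1 read and gave between 31837922 and 40896541 recovered reads. No column was left out.

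The genotypes were compared on log2(normalized count + 1) with limma 3.58.1 (R 4.3.3, trend and robust options, two-sided) over 18970 features (mean of 10 or more), with Benjamini-Hochberg adjustment over all of them and a threshold of 0.05. A fold change on this scale understates that of low features. The ratios, and single features where stated, were compared by an exact two-sided permutation test of log2 values, 3 wild-type against 3 dKO libraries. Counting error and spread between embryos both enter the standard errors. Alternatives on the recovered reads were DESeq2 1.42.0 and the quasi-likelihood test of edgeR 4.0.16. Counts of 18970 features were simulated for wild-type against dKO, with 200 features changed by 1.5-fold or more. Of these limma called 161 with 13 false calls, edgeR 163 with 17 and DESeq2 176 with 34. Low features were not changed, and no library was given a trend with transcript length. These shares therefore say nothing about differences under 1.5-fold, such as those of the members. The transcript length of a gene is that of its longest transcript in the basic annotation of GENCODE release M21. Python 3.11.15 with pandas 2.3.3 and numpy 2.4.6 was used for the rest.

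The members, the lists and the tests were chosen with earlier results of these data known. Every library is given for members with an unadjusted *P*-value under 0.05 or no overlap, for the largest change of each role and for *Cask* and the transporters, and of the further genes those with an unadjusted *P*-value under 0.05 are named. The Y-linked genes were named after their values were seen, and the 6 ratios and the promoter motif were chosen then too. Splicing, imaging and protein data were not analysed here. Results on some single genes of the lists are not reported here, though the counts include them.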

Additional observations from a re-analysis of the deposited data

How the results depend on the processing

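The count of members at an adjusted *P*-value under 0.05 was 0 under each of the 18 alternatives, and the median log2 fold change of the members stayed below 0, from -0.12 to -0.02 with each library left out and down to -0.10 with quantile normalization. The count at an unadjusted *P*-value under 0.05, 4 members beside 11.5% of all features, was 2 with TMM rescaling (11.5% of all features), 8 with quantile normalization (10%), 0 without the trend and robust options (9.88%) and 7 with the length correction (13.9%). With each library left out it ran from 0 to 9, with 2 members without wild-type replicate 1 (8.06% of all features), 9 without wild-type replicate 2 (14.3%), 1 without wild-type replicate 3 (7.35%) and 0 without dKO replicate 3 (6.47%). The share of all features moved the same way with the library left out in these cases, and the cause was not tested. Of the further release genes 10 had an unadjusted *P*-value under 0.05, and between 8 and 17 did with each library left out, with 17 without wild-type replicate 2 (14.3% of all features) and 8 without wild-type replicate 3 (7.35%). At an adjusted *P*-value 0 did, and 2 did in DESeq2. *Khdrbs3* kept a log2 fold change of -1.05 without the trend and robust options, with an adjusted p of 0.0891 from limma. *Slc32a1*, at -0.05, lay between -0.22 and 0.17 when single libraries were left out and turned to 0.17 without wild-type replicate 3 and to 0.08 without dKO replicate 3. Of the values recomputed, 327 were classed as unchanged and 14 as changed. For single genes, unchanged meant the same direction and side of the threshold. A count was unchanged if equal to the main count or within 1.5-fold of it. The median of the members was unchanged if it moved by less than 0.0914, the spread between libraries, so these 2 rules are loose.

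The replicate numbers were not used as pairs in the main fit. The correlations of the deviations of same-numbered libraries were 0.10, -0.23 and -0.08, beside -0.14 to 0.205 for libraries of unlike number. With 3 libraries a genotype these values cannot exclude a pairing by number. Both libraries numbered 1 had the positive trend with transcript length given above. With the replicate number as a block 5 members had an unadjusted *P*-value under 0.05 (12.2% of all features), with the block and the length correction 7 (11.9%), and 0 members an adjusted one.

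With 3 embryos a genotype, the median standard error of 0.11 limited how small a difference could be told from the spread between embryos. The adjusted threshold asked for more. *Rab27b*, at a log2 fold change of -0.90 with a standard error of 0.19, had an adjusted p of 0.187 from limma. A member that did not pass this threshold may still differ in level.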

Other observations

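The spans of the members hold 95 features without a symbol, of which 9, in 8 genes, passed the filter. None of the 9 had an unadjusted *P*-value under 0.05 in limma, and none an adjusted one.

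The promoters of 55 of the further release genes were searched in the same way. The cAMP response element TGACGTCA was in 4 of them (7.27%), those of *Cltb*, *Napa*, *Sh3gl2* and *Slc18a2*, beside 2.03% of all promoters. Of these genes *Cltb*, which encodes a clathrin light chain, was lower in each dKO library than in each wild-type one (log2 fold change -0.15, adjusted p = 0.449 from limma). The same held for 8.48% of all features tested. The genotypes overlapped in *Napa* (log2 fold change 0.02), *Sh3gl2* (-0.01) and *Slc18a2* (-0.61).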
